A study of Homo sapiens with 16 samples.

Results

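Nucleosome fragments released by a heavy micrococcal nuclease (MNase) digest were compared at human promoters between untreated GM12878 cells and cells exposed for 20 min to heat-killed Salmonella typhimurium (HKST). GM12878 is an Epstein-Barr virus-transformed B-lymphoblastoid cell line, grown in culture, so every sample comes from 1 established line. The promoters were those with a complete row in both heavy-digest tables, which gave 6779 of the 21857 in the series, on 9 chromosomes (1 and 10 to 17) and for 6750 genes. Of the 16 samples in the series, 4 enter this comparison: 2 replicates of untreated cells and 2 replicates of cells at 20 min post-HKST, all digested with 200 U of MNase. All other samples were either digested with 20 U (light) or taken at 40 and 60 min. Chromatin was cross-linked with formaldehyde before digestion, and promoter DNA was enriched by solution capture of the 2 kb around each transcription start site (TSS).

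The nucleosome wraps DNA around a histone octamer and shields it from MNase, which cuts the linker DNA between nucleosomes and, with more enzyme, also trims and destroys the less stable particles. Fragments of mononucleosome length that survive a heavy digest therefore report nucleosomes that resist the enzyme, and a lower value can be read as lower occupancy by resistant particles but not as loss of the histones. At active promoters the TSS typically lies in a nucleosome-depleted region flanked by the -1 nucleosome upstream and the +1 nucleosome downstream, with further nucleosomes phased away from it. MNase cuts A and T-rich DNA more readily, so that base composition is known to move with the yield of fragments at any digestion level.

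The authors pooled both replicates into 1 table per time point and digestion level. There is therefore no spread between replicates to set against a difference, no p-value was calculated, and intervals on single promoters are exact 95% intervals that cover counting error only. A value is the number of centers of 140 to 200 bp fragments in a 60 bp window, per 1000000 (1 M) reads of the table (rpm), every 10 bp from -1000 to 1000 bp. The tables rest on 5.12 M fragments in untreated cells and 4.12 M at 20 min, and the median promoter held 167.3 fragments over its 2 kb in untreated cells and 131.7 at 20 min. In the window of the -1 nucleosome, from -200 to 0 bp, the medians were 6.67 and 4.92 fragments, and 692 promoters held none in either table. The time of HKST coincides with separate digests and libraries, so a difference between times cannot be told apart from a difference between tubes. No cell type was called from these fragments, since they report chromatin and not transcripts.

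The sequences of 5 promoters with large changes show how base composition differed among them. Each is the 200 bp upstream of the TSS on the coding strand (GRCh37, the same assembly as hg19), read 5′ to 3′, and capitals mark runs of 5 or more A or T. SNORD114-15 (chr14:101438807-101439006, plus strand, within the noncoding MEG8 transcript) is a small nucleolar RNA gene with more fragments at 20 min over its 2 kb. OR1E1 (chr17:3301705-3301904, minus strand) encodes an olfactory receptor and had more fragments in the window itself. ZNF140 (chr12:133656837-133657036, plus strand), a zinc finger gene, had fewer fragments over its 2 kb, and EEF2K (chr16:22217392-22217591, plus strand), the kinase of elongation factor 2, had fewer in the window. ATP5B (chr12:57039853-57040052, minus strand), the catalytic subunit of ATP synthase, also had fewer in the window, from a more A and T-rich sequence. None of these 5 windows overlaps an annotated exon.
SNORD114-15: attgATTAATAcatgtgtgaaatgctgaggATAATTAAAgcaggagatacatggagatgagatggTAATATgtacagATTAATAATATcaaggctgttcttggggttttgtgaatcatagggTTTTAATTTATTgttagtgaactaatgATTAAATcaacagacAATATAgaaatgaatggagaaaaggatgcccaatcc
OR1E1: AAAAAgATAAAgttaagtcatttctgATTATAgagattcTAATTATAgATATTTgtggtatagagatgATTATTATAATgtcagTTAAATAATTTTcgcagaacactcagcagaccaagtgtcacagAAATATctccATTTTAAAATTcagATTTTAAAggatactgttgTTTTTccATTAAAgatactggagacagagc
ZNF140: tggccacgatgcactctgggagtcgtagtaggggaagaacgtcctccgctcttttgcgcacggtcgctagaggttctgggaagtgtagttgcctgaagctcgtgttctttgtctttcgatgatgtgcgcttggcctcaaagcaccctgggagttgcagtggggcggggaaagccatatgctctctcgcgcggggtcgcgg
EEF2K: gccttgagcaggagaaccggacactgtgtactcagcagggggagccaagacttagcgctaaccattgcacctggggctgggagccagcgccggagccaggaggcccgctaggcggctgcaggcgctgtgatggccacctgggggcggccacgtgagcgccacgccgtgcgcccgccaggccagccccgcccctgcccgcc
ATP5B: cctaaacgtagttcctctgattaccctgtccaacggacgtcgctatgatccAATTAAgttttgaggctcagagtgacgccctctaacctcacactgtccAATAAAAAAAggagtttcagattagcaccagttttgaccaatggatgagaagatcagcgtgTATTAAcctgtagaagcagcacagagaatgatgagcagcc
The windows of SNORD114-15 and OR1E1 were 32% and 28.5% G and C, with 7 and 12 such runs and with 0 and 1 CpG. Those of ZNF140 and EEF2K were 59% and 72.5% G and C, with no run and with 16 CpG each, and that of ATP5B was 45% G and C with 3 runs and 6 CpG. Over all 6779 promoters the median window was 62.5% G and C, with 13 CpG and 1 run of A or T, and 62.2% of windows held at least 1 run, counted on 1 strand since a run reads as a run on both. The 5 windows were chosen for their change and test nothing. Most of the largest falls from -200 to 0 bp, given below, were in promoters below the median GC content.

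The average heavy-digest profile kept its shape at 20 min while its level near the TSS was lower. Resistant fragments formed maxima at -620, -400 and -200 bp (the -3, -2 and -1 nucleosomes) and at 150, 370 and 610 bp (+1, +2 and +3), with a trough at -90 bp. At 20 min the maxima lay within 10 bp of these positions, and Pearson's r between the 2 average profiles was 0.992 over 200 positions, a description only since neighboring positions share fragments. The +1 maximum went from 1.26 to 1.14 rpm, the -1 maximum from 1.11 to 1.04 rpm and the trough from 0.615 to 0.581 rpm. The average was lower at 20 min at 96 of the 100 positions within 500 bp of the TSS at 47 of the 50 positions from 500 to 1000 bp and at 1 of the 50 from -1000 to -500 bp. The lowest log2 change of the average was -0.16 at 120 bp and the highest was 0.056 at -920 bp.

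**Figure D1:**
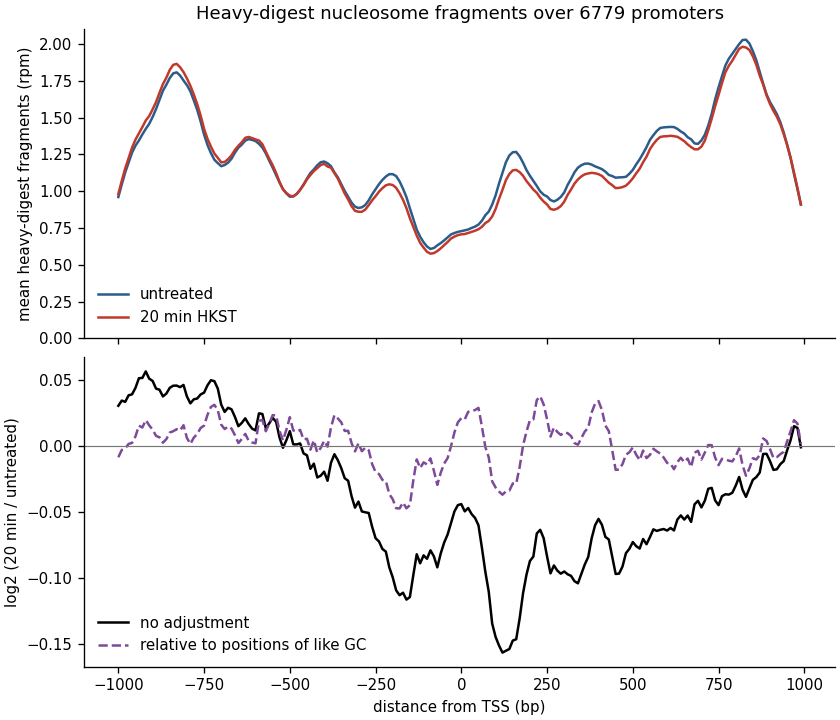
Mean heavy-digest fragments (rpm, upper panel) of untreated (blue) and 20 min HKST (red) cells, and their log2 ratio (lower panel), by distance from the TSS in bp over 6779 promoters, without replicates. The black line has its lowest value of -0.16 at 120 bp and is below 0 at 1 of the 50 positions from -1000 to -500 bp, whereas the dashed line, relative to positions of like GC content, stays between -0.047 and 0.037. The dashed line is centered by ratios taken from the same data.

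Summed over promoters, resistant fragments were lower by a log2 of -0.13 at the +1 nucleosome (95% counting interval -0.14 to -0.11), where the mean went from 1.12 to 1.02 rpm. The change was -0.091 at the -1 nucleosome (-0.11 to -0.075), -0.089 from -200 to 0 bp (-0.10 to -0.074) and -0.087 at the trough (-0.11 to -0.069). Further out it was smaller: -0.082 at +2, -0.062 at +3, -0.015 at -2 and 0.020 at -3. The upstream flank, from -1000 to -500 bp, was higher by 0.034 (0.026 to 0.041). Single promoters spread widely around these values: the median change over the 2 kb was -0.028 with quartiles of -0.17 and 0.12, and the median from -200 to 0 bp was -0.018 with quartiles of -0.47 and 0.24. At 40 min the sums changed by 0.0011 at +1 and -0.035 at -1, and at 60 min by -0.10 and -0.073. These 3 comparisons share 1 untreated table.

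Over the 2 kb, 536 of 6674 promoters with at least 50 fragments rose and 692 fell beyond counting error, which is 8.03% and 10.4% of those tested, where counting error alone gives at most 2.5% in each direction. Past 1.5-fold, 85 rose (1.27%) and 30 fell (0.45%). Of 3683 promoters with at least 10 fragments from -200 to 0 bp, 92 rose (2.5%) and 4.02% fell beyond counting error, and past 2-fold 2.88% rose and 214 fell (5.81%). The balance of rises and falls depends on how the tables are scaled. When both were scaled to the total over the 6779 promoters, which moves every log2 change by 0.034, the calls beyond counting error became 647 rises and 514 falls over the 2 kb and 3.2% and 3.42% of those tested from -200 to 0 bp. The variance of the promoters' changes was 2.27 times that of counting error over the 2 kb and 1.29 times from -200 to 0 bp, so the counting intervals are narrower than the spread between promoters.

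The change over the 2 kb followed the GC content of the promoter. Promoters that rose beyond counting error had a median of 43.02% G and C (quartiles 37.95% and 48.56%), those that fell 60.7% (57.04% and 65.25%), and all promoters 55.7%. In the lowest GC decile (29.4% to 43.2%) the mean went from 0.713 to 0.898 rpm, and 90.3% of 678 promoters were higher at 20 min. In the highest decile (66.1% to 79.9%) it went from 0.903 to 0.790 rpm, and 21.3% of 677 were higher. The median change went down through every decile in between, from 0.30 in the lowest to -0.16 in the highest. The lowest decile held 275 rises (42.1% of 653 tested) and 0 falls beyond counting error, while in the highest 6 rose and 22.2% of 666 tested fell. Pearson's r between GC content and change was -0.53 over 6779 promoters, which share both libraries and in part overlap on the genome. These values describe the tables, and the part of base composition in the change was not tested.

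**Figure D2:**
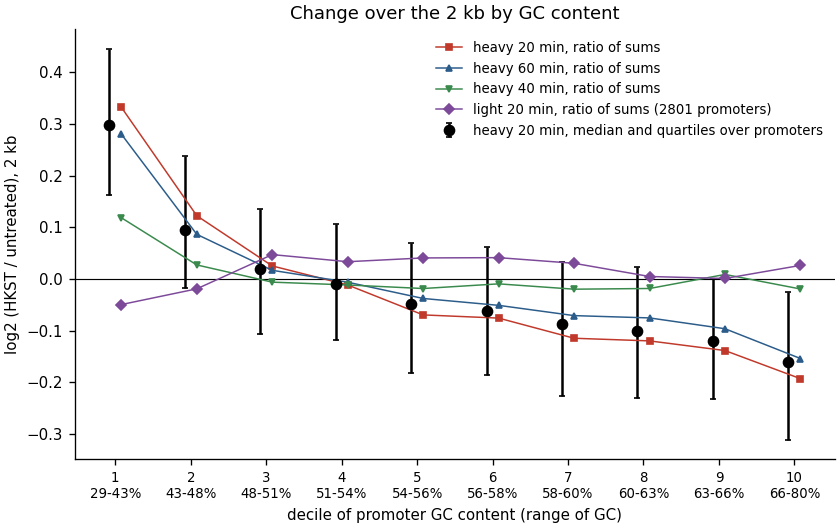
Log2 change over the 2 kb by decile of promoter GC content. Black points and bars are medians and quartiles over the promoters of each decile for the heavy 20 min table, and lines are ratios of summed rpm for heavy 20 min (red), 60 min (blue) and 40 min (green), which share 1 untreated table, and for light 20 min (purple, 2801 promoters). Heavy 20 min runs from 0.33 in the lowest decile to -0.19 in the highest, and light 20 min from -0.050 to 0.026.

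The other time points and the other digest give the setting of this pattern. The ratio of sums in the lowest and the highest GC decile was 0.33 and -0.19 at 20 min, 0.12 and -0.019 at 40 min, and 0.28 and -0.15 at 60 min, all against the same untreated heavy table. The light digest has its own untreated table and covers 2801 of these promoters. There the light change was -0.050 and 0.026 in the same deciles, where the heavy change of the same promoters was 0.31 and -0.20. Pearson's r between GC content and change was -0.54 for the heavy and 0.016 for the light digest over those 2801 promoters, and r between the heavy and the light change was 0.0077.

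The pattern also held position by position within promoters. Bins were divided into 20 classes by the GC content of the 160 bp around them. In the class of lowest GC (11.3% to 33.1%) the mean went from 0.103 to 0.173 rpm, a log2 ratio of 0.75. The ratio went down through the classes to -0.29 at 66.9% to 68.1%, where the means were 1.23 and 1.01 rpm. Above that class it turned back, to -0.23 at 71.9% to 73.8% and at 74.4% to 77.5%. In the class of highest GC (78.1% to 96.3%) the ratio was -0.073, but almost no fragments were recovered, at 0.0152 and 0.0144 rpm. When each bin was compared with all bins of its class, the sums changed by -0.016 at +1, -0.032 at the -1 nucleosome and -0.021 at the trough. Calls beyond counting error over the 2 kb then numbered 298 rises and 295 falls, and the variance was 1.46 times that of counting error. The class ratios come from these same 2 tables, so the change summed over the 2 kb is 0 by construction. Rises and falls are thereby drawn toward balance.

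When the promoters were divided into 3 groups of equal size by GC content, the dip around the TSS was present in each. In the low GC group (29.4% to 51.95%) the change was 0.22 in the upstream flank, 0.085 at -1 and -0.017 at +1. In the middle group (to 59.4%) it was 0.030, -0.16 and -0.21, and in the high GC group (to 79.9%) -0.073, -0.22 and -0.27. The groups also differed in untreated cells: the +1 nucleosome held 1.51 rpm in the low, 1.26 rpm in the middle and 0.597 rpm in the high GC group.

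**Figure D3:**
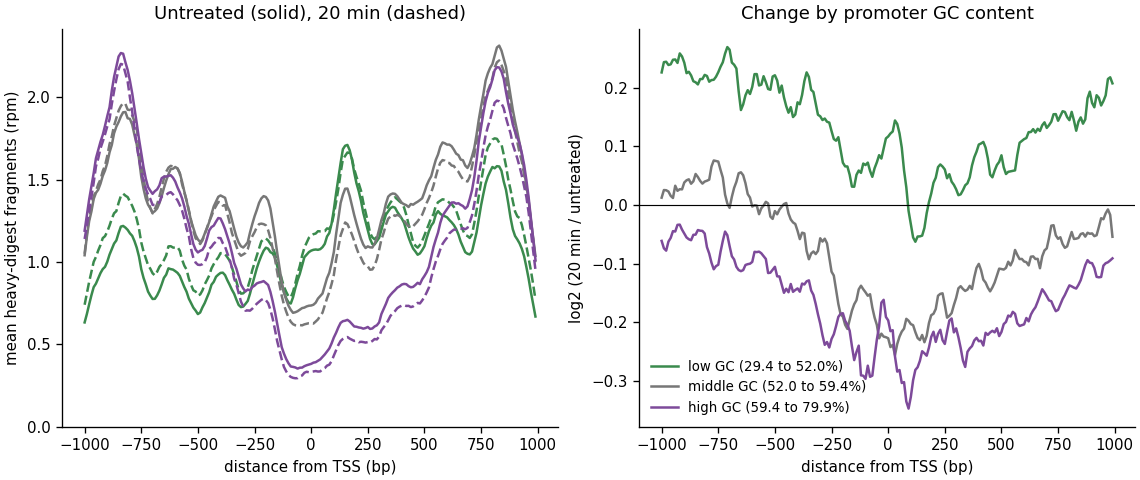
Mean heavy-digest fragments in rpm (left, untreated solid, 20 min dashed) and their log2 ratio (right), by distance from the TSS in bp, for 3 groups of promoters by GC content (6779 in all), without replicates. In each group the ratio is lower near the TSS than in the upstream flank, and high GC promoters lie below low GC promoters at every nucleosome, with -0.27 against -0.017 at +1.

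Promoters near each other on a chromosome had similar changes, which fell off with distance. For neighbors 2 to 10 kb apart, Pearson's r of the change over the 2 kb was 0.34 over 527 pairs, for 10 to 50 kb 0.17 over 2036 pairs and for 200 to 1000 kb 0.052 over 980 pairs. Relative to positions of like GC the same values were 0.10, 0.031 and 0.0019. The 2 kb of 965 promoters (14.2%) overlapped that of a neighbor, so they share fragments. By chromosome, the median change ran from -0.090 on chromosome 16, whose promoters had the highest median GC content (59.5%), to 0.036 on chromosome 13 (54.8%).

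The 8 largest rises over the 2 kb were in A and T-rich DNA, with GC contents of 30.2% to 44.7% for the 2 kb. SNORD115-48, a small nucleolar RNA gene of the imprinted Prader-Willi region, went from 0.261 to 0.915 rpm (43 to 121.3 fragments, log2 change 1.44, interval 1.29 to 2.34). SNORD114-15 and SNORD114-18, of the imprinted DLK1-DIO3 cluster, went from 0.205 to 0.565 rpm and from 0.142 to 0.422 rpm. These genes lie in tandem arrays of related copies, so their fragments depend on the unique alignments that the authors kept. LINC00301, a noncoding RNA gene, went from 0.603 to 1.297 rpm (98.2 to 170.2 fragments, log2 change 0.97, interval 0.74 to 1.48). AMPD1, the AMP deaminase of skeletal muscle, went from 0.375 to 0.853 rpm, and RXFP2, a receptor for insulin-like peptide 3, from 0.154 to 0.412 rpm. C1orf185 went from 0.124 to 0.392 rpm and USP6NL, a GTPase-activating protein for Rab5, from 0.116 to 0.344 rpm. At 40 and 60 min all 8 lay between the untreated and the 20 min value, which the choice of the highest 20 min values favors: SNORD115-48 was at 0.472 and 0.672 rpm and LINC00301 at 0.680 and 0.879 rpm.

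Of the 8 largest falls over the 2 kb 7 are described, with GC contents of 54.6% to 72.4%. ZNF140 went from 0.779 to 0.328 rpm (106.3 to 36.1 fragments, log2 change -1.004, interval -1.83 to -0.69). CKAP4, a membrane protein of the endoplasmic reticulum, went from 0.806 to 0.407 rpm, and C11orf24 from 0.989 to 0.532 rpm. SP1, the transcription factor that binds GC boxes of many promoters, went from 0.372 to 0.160 rpm (52 to 18 fragments). PTF1A, a pancreatic transcription factor, went from 0.490 to 0.239 rpm. PNRC2, a coactivator of nuclear receptors, went from 0.276 to 0.124 rpm, and TESK2, a protein kinase, from 0.705 to 0.394 rpm. At 40 and 60 min ZNF140 was at 0.665 and 0.749 rpm and C11orf24 at 0.869 and 0.878 rpm, nearer to the untreated value. The choice of the largest falls at 20 min favors such values. SP1 was at 0.178 and 0.278 rpm. The light digest gave 0.736 and 0.971 rpm for TESK2 (untreated and 20 min) and 0.702 and 0.599 rpm for PNRC2.

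**Figure D4:**
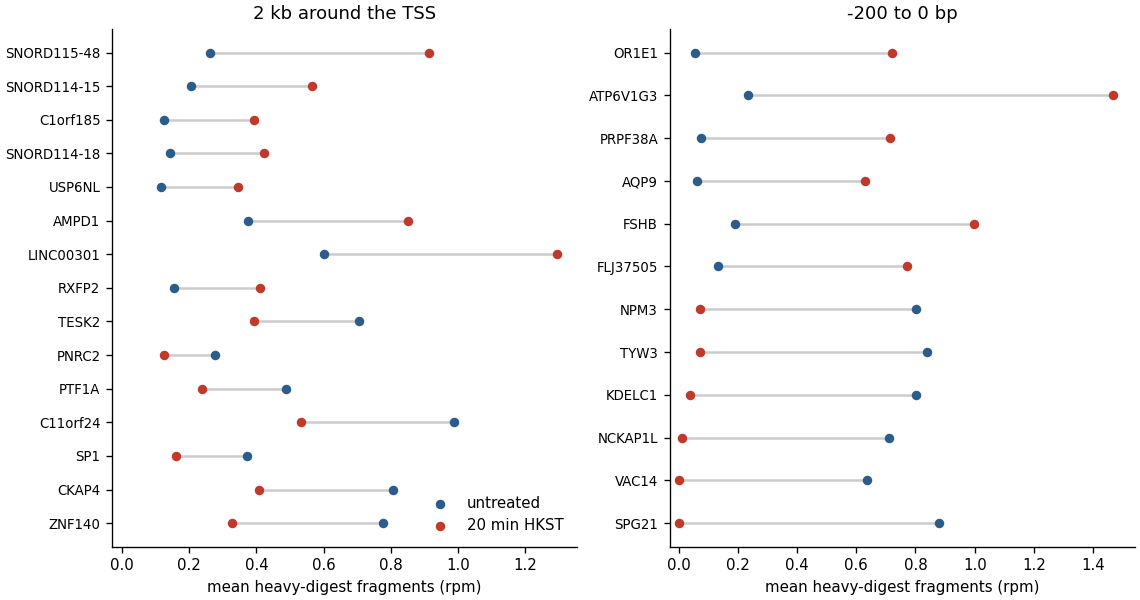
Mean heavy-digest fragments (rpm) in untreated (blue) and 20 min HKST (red) cells at the 8 largest rises and 7 of the 8 largest falls over the 2 kb (left) and the 6 and 6 largest from -200 to 0 bp (right), 1 pooled table per point. LINC00301 moves from 0.603 to 1.297 rpm on the left, and on the right VAC14 and SPG21 reach 0 at 20 min.

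From -200 to 0 bp the largest rises began from few fragments. Ranking by change favors this, as does a minimum of 10 fragments set on the sum of both tables. OR1E1 went from 0.0537 to 0.722 rpm (0.917 to 9.92 fragments, interval of the log2 change 0.82 to 9.07). ATP6V1G3, a kidney-restricted subunit of the vacuolar proton pump, went from 0.235 to 1.47 rpm (4.00 to 20.2 fragments, log2 change 2.16, interval 1.06 to 4.64). PRPF38A, a spliceosome component, went from 0.0771 to 0.715 rpm, and its window overlaps an exon of ORC1, which is transcribed the other way. AQP9, a water and glycerol channel, FSHB, the beta chain of follicle-stimulating hormone, and the noncoding FLJ37505 went from 0.0635, 0.190 and 0.132 rpm to 0.631, 0.996 and 0.770 rpm. At 60 min the values of ATP6V1G3 and FSHB were 0.831 and 0.333 rpm, lower than at 20 min, which the choice of the largest rises favors.

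In this window the largest falls ended at or near 0, which the same ranking and minimum favor. Of the 6, 5 were in promoters below the median GC content of all (55.7% over the 2 kb). The 6 ran from 45.4% at NCKAP1L to 58.6% at KDELC1. Over all calls in this window the median GC content was 43.95% for rises and 57.75% for falls. SPG21, a protein of endosomes, went from 14.3 fragments to 0 and VAC14, a scaffold of phosphoinositide kinases, from 10.8 to 0, and the exact intervals of the log2 change lay below -1.42 and -1.015. NCKAP1L, a regulator of actin in blood cells, went from 11.5 to 0.167 fragments. KDELC1, TYW3 and NPM3 went from 0.802, 0.840 and 0.801 rpm to 0.0383, 0.0728 and 0.0728 rpm. SPG21 was at 0.499 rpm at 40 min and 0.490 rpm at 60 min, against 0.879 rpm in untreated cells. The choice of the largest falls at 20 min favors higher values at the other times. For TYW3 the light digest gave 0.684 and 0.712 rpm (untreated and 20 min).

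Over the 2 kb the genes of the pathway that HKST engages were spread around the median of all promoters. Bacterial products bind Toll-like receptors, whose adaptors and kinases (MYD88, IRAK and TRAF proteins) free NF-κB from its inhibitors. The NF-κB subunit promoters on these chromosomes were RELA, which fell over the 2 kb from 0.936 to 0.705 rpm (93.4 fragments at 20 min, interval -0.80 to -0.035), and NFKB2, at 0.755 and 0.621 rpm (interval -0.72 to 0.17). NFKBIA, the inhibitor and an early target of NF-κB, was at 0.849 and 0.938 rpm (interval -0.22 to 0.50), and the kinases IKBKE and CHUK were at 1.55 and 1.52 rpm and at 1.80 and 1.78 rpm. Of these 5 rows RELA alone was called over the 2 kb, and neither of the 2 with at least 10 fragments was called from -200 to 0 bp. Over all promoters 8.03% rose and 10.4% fell over the 2 kb, and 2.5% and 4.02% from -200 to 0 bp. Counted 70 bp to each side of the -1 maximum, the sum over the 5 promoters changed by -0.77 (-1.39 to -0.17), against -0.091 for all promoters. From -200 to 0 bp the sum changed by -0.17 (-0.70 to 0.38) and the median was -0.43, so the value depends on the window.

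Among 11 promoters of Toll-like receptor signaling, 1 rose and 2 fell over the 2 kb, against 8.03% and 10.4% of all promoters. MAPK8, the stress kinase JNK1, went from 0.215 to 0.431 rpm in a promoter of 32.6% G and C. TRAF3 went from 0.969 to 0.676 rpm and TOLLIP, an inhibitor of the pathway, from 0.696 to 0.504 rpm, in promoters of 76.2% and 67.9% G and C. TRAF6 was at 1.41 and 1.54 rpm and IRAK4 at 1.27 and 1.01 rpm, without a call. Of 13 NF-κB target promoters 2 fell over the 2 kb, CCND2 (1.05 to 0.811 rpm) and TNFAIP2 (1.85 to 1.51 rpm), and none rose, against the same 10.4% and 8.03%. Among them TNFRSF9, the costimulatory receptor 4-1BB, rose from 0.430 to 1.24 rpm between -200 and 0 bp (7.33 to 17 fragments, interval 0.25 to 3.10). Counted 70 bp to each side of the -1 maximum, the sum changed by -0.14 (-0.48 to 0.20) over the Toll-like receptor signaling promoters. Over the NF-κB targets it changed by 0.034 (-0.39 to 0.44). At the +1 nucleosome the sum over these targets changed by -0.35 (-0.68 to -0.028), against -0.13 for all promoters.

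Immediate early genes, which need no new protein for induction, had a median change of -0.185 over the 2 kb, against -0.028 for all promoters. Of 15 promoters 13 were lower at 20 min, against 55.2% of all promoters, and 3 of 14 tested fell with none called a rise, against 10.4% and 8.03%. FOS, a subunit of AP-1, went from 1.51 to 1.13 rpm (247.5 to 149.4 fragments, interval -0.73 to -0.12). CYR61 went from 2.16 to 1.79 rpm and BTG1, an antiproliferative factor, from 0.777 to 0.537 rpm. Their median GC content was 59.9%, and relative to positions of like GC the median was -0.12. Most of these promoters had few or no resistant fragments from -200 to 0 bp in either table, 3 of 15 with at least 10. Their sum there changed by -0.31 (-0.91 to 0.26). Counted 70 bp to each side of the -1 maximum, it changed by -0.59 (-1.025 to -0.14), against -0.091 for all promoters.

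Of 30 promoters of interferon-stimulated genes 2 rose and 3 fell over the 2 kb, shares near the 8.03% and 10.4% of all promoters. IFIT1, which binds viral RNA, went from 0.704 to 1.12 rpm (91.3 to 117.3 fragments, interval 0.27 to 1.09) and GBP1, an interferon-induced GTPase, from 0.512 to 0.737 rpm. ISG15, a ubiquitin-like modifier, went from 0.920 to 0.648 rpm (interval -0.93 to -0.084), IFITM2 from 2.82 to 2.22 rpm and IFITM5 from 1.78 to 1.46 rpm. Whether interferon induces each member of this list, IFITM5 included, was not examined. The promoters of IFIT1 and GBP1 were 44.5% and 37.6% G and C, and those of ISG15, IFITM2 and IFITM5 55.8%, 59.6% and 64.4%. From -200 to 0 bp the sum over the 30 promoters changed by -0.22 (-0.45 to -0.0041), against -0.089 for all promoters. Relative to positions of like GC it changed by -0.26. Counted 70 bp to each side of the -1 maximum, the sum changed by -0.067 (-0.31 to 0.17), so the value depends on the window.

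Of 27 B cell identity promoters 4 rose and 2 fell over the 2 kb, against 8.03% and 10.4% of all promoters, with a median change of 0.089. The rises were CD84 (0.373 to 0.591 rpm), a receptor of the SLAM family, FCRL4 (0.590 to 0.894 rpm) and FCRL3 (1.05 to 1.37 rpm), Fc receptor-like proteins of B cells, and CXCR5 (1.70 to 2.06 rpm), the homing receptor for follicles. The falls were IRF8 (1.05 to 0.772 rpm) and SPI1 (2.197 to 1.80 rpm, 364 to 240 fragments, interval -0.53 to -0.050), which encodes the transcription factor PU.1. SPI1 was at 2.29 rpm at 40 min and 1.90 rpm at 60 min, and in the light digest it was at 1.87 and 1.89 rpm (untreated and 20 min). Of 18 T and NK lineage promoters 3 rose, KLRC4 most (0.535 to 0.988 rpm), and 1 fell, LCK (4.31 to 3.13 rpm). The 27 B cell promoters had a median of 45.6% G and C, and relative to positions of like GC their median change was 0.011.

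The promoters of taste receptors had the highest median change of the 29 lists, 0.52 over the 2 kb. Of these 12 promoters 10 rose, against 8.03% of all promoters and 42.1% of those tested in the lowest GC decile. All 10 were TAS2R bitter receptor genes of chromosome 12, silent in most cells, with a median of 36.5% G and C and no overlap between their 2 kb. Their changes ran from 0.37 at TAS2R31 (1.00 to 1.33 rpm) to 0.68 at TAS2R50 (0.451 to 0.796 rpm, 75 to 106.7 fragments). TAS1R1 and TAS1R2, which encode sweet and umami receptor subunits on chromosome 1, were at 1.18 and 1.21 rpm and at 1.16 and 1.26 rpm, with 57.9% and 51.1% G and C. Relative to positions of like GC the median of the 12 was 0.24. At 40 and 60 min the median of the list was 0.23 and 0.34, against the same untreated table.

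Olfactory receptor promoters, of which 84 were measured, had a median change of 0.17. Of 76 tested 20 rose over the 2 kb and none fell, against 8.03% and 10.4% of all promoters. OR5T1 had the highest change, from 0.541 to 1.03 rpm (75.3 to 115.2 fragments, interval 0.50 to 1.37), and OR1D4 the lowest, with 0.376 and 0.329 rpm and no call. Their median GC content was 42.3%, and relative to positions of like GC the median was 0.043.

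Clustered small nucleolar RNA genes were examined after SNORD115-48 and the SNORD114 genes appeared among the largest rises, and so were chosen after their values were seen. Of 38 SNORD113 and SNORD114 promoters on chromosome 14, 24 rose, none fell and the median change was 0.51, but the 2 kb of 34 of them overlap a neighbor and share its fragments. Their median GC content was 32.95%. On chromosome 15, of 36 SNORD115 promoters 2 rose and 8 fell with a median of -0.11 at 58.7% G and C, and of 19 SNORD116 promoters 9 rose and none fell at 48.4%. SNORD115-48, at 36.4% G and C, had the highest change of the 36 (1.44). Over all promoters 8.03% rose and 10.4% fell. Relative to positions of like GC the median changes were 0.22 for SNORD113 and SNORD114, 0.039 for SNORD115 and 0.17 for SNORD116.

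Genes of the epidermal and hair program, which are typically silent in B cells, held many resistant fragments. In untreated cells the mean was 2.38 rpm over the keratin promoters and 1.86 rpm over the epidermal differentiation complex, against 1.21 rpm over all promoters. Of 35 keratin and keratin-associated promoters 11 fell and none rose, against 10.4% and 8.03% of all promoters, with a median change of -0.13 over the 2 kb. The KRT and KRTAP promoters held medians of 372.5 and 377.7 untreated fragments, against 167.3 for all, so smaller changes pass counting error there. Relative to positions of like GC the median change of the list was -0.088, and from -200 to 0 bp it was 0.063. KRTAP5-5 had the lowest change, from 1.74 to 1.31 rpm (254 to 154.1 fragments, interval -0.71 to -0.12), and all 10 KRTAP promoters were lower at 20 min, 5 of them beyond counting error. The epidermal differentiation complex of chromosome 1, with 47 promoters, had 6 rises and 4 falls. S100A12 went from 2.18 to 2.86 rpm and S100A16 from 2.48 to 1.75 rpm, calcium-binding proteins encoded in the same complex.

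Translation factor and tRNA synthetase promoters had a median change of -0.19 over the 2 kb, with 7 falls and no rise among 37 tested (10.4% and 8.03% of all promoters), and 31 of 39 lower at 20 min. EEF2K went from 1.36 to 0.834 rpm (197.7 to 97.3 fragments, interval -1.08 to -0.36), and from 11.2 fragments to 1.00 from -200 to 0 bp. Relative to positions of like GC the median of the list was -0.14. Ribosomal protein promoters of the cytosol had a median change of 0.028 over the 2 kb, with RPL26 (1.26 to 0.889 rpm) and RPLP1 (1.28 to 0.932 rpm) called falls and RPL10L, an autosomal testis-expressed copy, a rise (1.62 to 2.03 rpm).

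The sum from -200 to 0 bp over 31 cytosolic ribosomal protein promoters went from 182.5 to 103.8 fragments, a log2 ratio of -0.50 (counting interval -0.86 to -0.14), against -0.089 for all promoters. The same ratio was -0.44 over 27 oxidative phosphorylation promoters (-0.74 to -0.15), -0.44 over 42 chromatin remodelers and histone modifiers (-0.73 to -0.15), -0.39 over 29 promoters of RNA polymerase II initiation (-0.76 to -0.032) and -0.38 over the 39 translation promoters (-0.65 to -0.10). These 5 lists had the lowest ratios of the 29, and this ratio was added after seeing the data. Their intervals therefore test nothing about the lists. Relative to positions of like GC these 5 ratios were -0.38, -0.33, -0.33, -0.31 and -0.30. In the same order, 9, 12, 10, 8 and 14 promoters of these 5 lists had enough fragments to be called in this window. Over all promoters tested there, 4.02% fell and 2.5% rose beyond counting error. In these 5 lists the called falls were ATP5B (9.17 to 1.00 fragments), NDUFS3 of complex I (47.8 to 22.7 fragments), MED31 of the Mediator complex (43.8 to 17.7 fragments) and EEF2K. The called rise was ATP5G2 (12.1 to 21.4 fragments). The corresponding medians over promoters were -0.35, -0.28, -0.15, -0.11 and -0.33. These values depend on the window. Counted 70 bp to each side of the -1 maximum, an alternative to the 200 bp window, the sums changed by -0.30 (-0.63 to 0.015), -0.34 (-0.61 to -0.057), -0.16 (-0.49 to 0.17), -0.30 (-0.58 to -0.024) and -0.24 (-0.46 to -0.010), and the medians were -0.064, -0.60, -0.094, 0 and -0.15, so that the intervals of the ribosomal proteins and of the chromatin remodelers then included 0. Not every list of this kind was lower: 34 splicing factor promoters had -0.058 (-0.38 to 0.26) and 27 mitochondrial ribosomal protein promoters -0.054 (-0.41 to 0.29).

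At the +1 nucleosome the sum over the oxidative phosphorylation promoters changed by -0.47 (-0.70 to -0.24), from 1.41 to 1.02 rpm, over the translation promoters by -0.34 (-0.56 to -0.13) and over the keratins by -0.40 (-0.57 to -0.23), against -0.13 for all promoters. Other lists lay near these: lysine metabolism at -0.38 (-0.83 to 0.064) and NF-κB targets at -0.35 (-0.68 to -0.028). DNA replication and chaperones were both at -0.32 (-0.55 to -0.090 and -0.52 to -0.11). Lists also went the other way: the olfactory receptors were higher there by 0.16 (0.059 to 0.26) and the B cell identity promoters by 0.20 (-0.028 to 0.42). These intervals cover counting error only and not the spread between libraries.

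**Figure D5:**
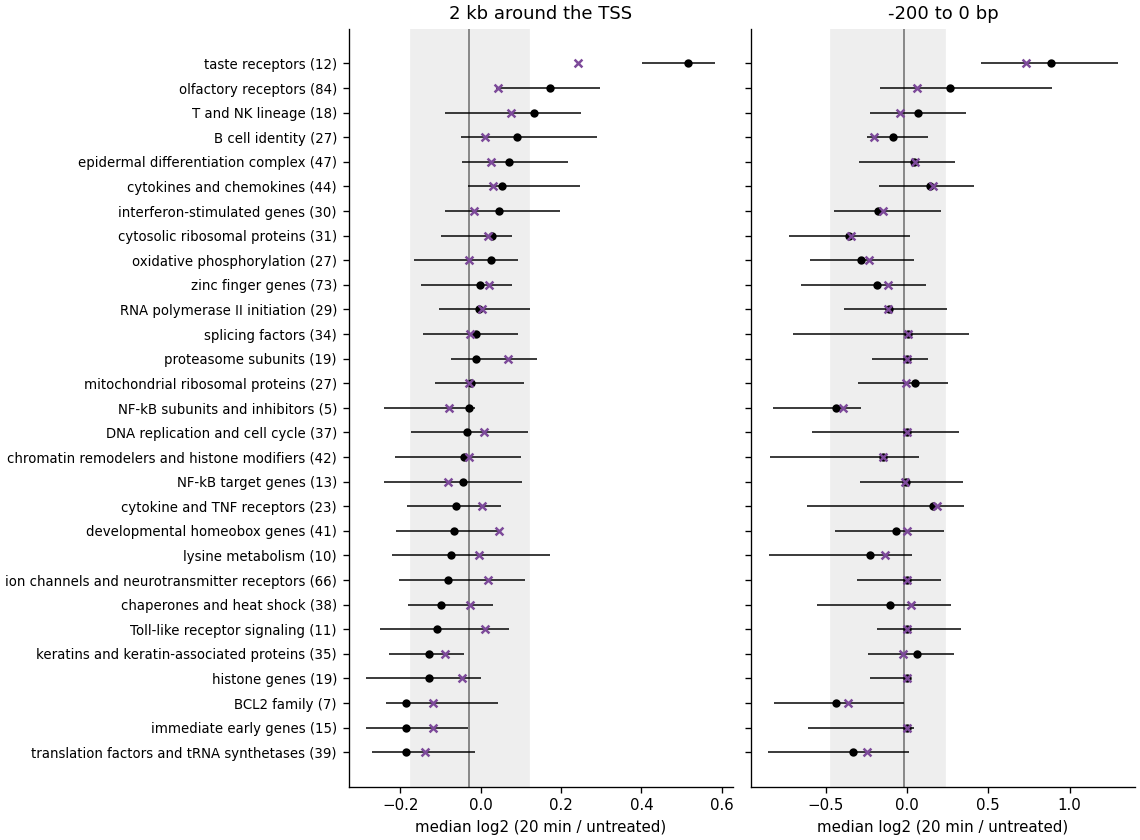
Median log2 change (black points, with bars from the lower to the upper quartile over promoters) of 29 gene lists, with the number of promoters in parentheses, over the 2 kb (left) and from -200 to 0 bp (right). The grey line and band are the median and quartiles of all promoters, and purple crosses are medians relative to positions of like GC, where the taste receptors move from 0.52 to 0.24 over the 2 kb.

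The remaining lists had medians over the 2 kb from -0.185 in the BCL2 family to 0.053 in cytokines and chemokines. Cytokine and chemokine promoters had 8 rises and 1 fall among 42 tested, with IFNG at the top (0.171 to 0.331 rpm) and IL17D at the bottom (0.681 to 0.405 rpm). Chromatin remodelers and histone modifiers had 4 rises, SETDB2 the highest (0.185 to 0.441 rpm), and 4 falls, ARID2 the lowest (0.379 to 0.202 rpm). Ion channels and neurotransmitter receptors had 4 rises and 11 falls of 65, zinc finger genes 3 and 9 of 72, developmental homeobox genes 4 and 5 of 41, and chaperones 1 and 4 of 38. Histone genes had 1 rise and 3 falls of 14 and cytokine receptors 1 and 3 of 23. DNA replication and cell cycle genes had 4 falls of 36, with CDT1, the replication licensing factor, at 0.796 and 0.543 rpm. In the BCL2 family BAD alone of 7 fell (0.791 to 0.512 rpm), and in lysine metabolism 2 of 10 rose, with BBOX1, an enzyme of carnitine synthesis, the highest (1.63 to 2.21 rpm). Proteasome subunits had 1 fall of 19, splicing factors 3 rises and 2 falls of 34, mitochondrial ribosomal proteins 2 and 1 of 27, oxidative phosphorylation 2 and 3 of 27 and RNA polymerase II initiation 1 and 1 of 29. Over all promoters 8.03% rose and 10.4% fell, and the difference of any list from these shares was not tested.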

How the data were processed

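Heavy-digest nucleosome fragments were compared in 4 samples, untreated and 20 min HKST in 2 replicates each, which the authors pooled into 1 table per group. The submitters' processing notes name Bowtie2 2.2.2, SAMtools and bedtools, with hg19. The authors counted centers of 140 to 200 bp fragments in windows of 60 bp, moved by 10 bp each time, and deposited RPM values for 200 positions. The deposited values at the other positions are declared as a score because 1 pooled column is declared per table. They are on the same scale. All values lay within 0.05 of a whole step, worth 0.5 fragment, from which depth and fragments were recovered, at 6 windows per fragment. Both tables end in a partial line, which was left out. They hold 6779 and 16260 complete promoters, and 10.2% of positions had no value and were left out.

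The change was log2 of the mean value at 20 min over untreated, after 0.12 rpm (0.1 of the mean) was added to both. It therefore understates changes at low values, while exact 95% Clopper-Pearson intervals of the fold were taken on rounded fragments without it. PCR copies are not independent molecules, so intervals cover counting error only. Calls needed 50 fragments over the 2 kb or 10 from -200 to 0 bp, summed over both tables. Nucleosome windows span 70 bp to each side of the maxima of the untreated average. The comparison with positions of like GC used 20 classes of local GC content (GRCh37) and was added after seeing the data, as was the ratio of sums for the lists in both upstream windows.

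The members, the 29 gene lists and the rules were chosen with earlier results of these data known. Some lists go by name patterns and hold antisense genes. Genes were named as the 8 largest rises and falls over the 2 kb and the 6 from -200 to 0 bp beyond counting error, the highest and lowest of each list with at least 5 promoters, and NF-κB subunits, SPI1 and EBF1 where measured, 130 in all, of which 1 is not reported here. Others in the text are called members of their list or were chosen after their values were seen. Of the 130, 107 lie within 50 bp of a GENCODE v44 start. Alternatives were the scaling, the pseudocount, the fragment minimum, the window and the rows. Python 3.11.15, numpy 2.4.6, scipy 1.17.1, pysam 0.24.0 and matplotlib 3.10.9 were used, and the intervals were tested on simulated data.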

Additional observations from a re-analysis of the deposited data

How the results depend on the processing

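No paired analysis was possible because both replicates are pooled in each table, and for the same reason no replicate could be left out. Over the 2 kb the median change was -0.028, and 0 after scaling to the shared promoters, -0.020 when 0.5 of the mean rpm was added in place of 0.1, -0.016 as a mean and 0.00069 relative to positions of like GC. From -200 to 0 bp it was -0.018, but -0.070 at promoters with 10 or more fragments and -0.10 as a mean. At the +1 nucleosome it was -0.032, and -0.0043 after scaling, -0.12 as a mean and 0 relative to like GC, and at the trough it was 0, and -0.10 as a mean. Relative to like GC, rises past 1.5-fold over the 2 kb went from 85 to 27 and falls from 30 to 19, and those beyond counting error from 536 to 298 and from 692 to 295. Falls beyond counting error from -200 to 0 bp then numbered 87, or 2.36% in place of 4.02%. With no minimum of fragments 239 promoters rose and 490 fell past 2-fold there, and with 20 or more fragments 54 and 85, against 2.88% (rises) and 214 (falls) at 10 or more. The causes of these moves were not tested beyond the numbers of promoters that each minimum leaves. The other 40 medians and counts, 335 of 348 list medians and 554 of 576 values of named genes stayed within their intervals or within 1.5 times the count, and no called gene changed sign under these alternatives. Depth limits short windows, with medians of 6.67 and 4.92 fragments from -200 to 0 bp and 3.08 and 2.17 at the trough.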
